A study of Mus musculus with 12 samples.

Results

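RNA was sequenced from mouse bone marrow carrying 1 of 2 leukaemia mutations alone, and the state with mutant NRAS was compared with the state with mutant SETBP1 across all genes. The comparison uses 6 of the 12 libraries of the study, 3 labelled EMPTY + NRAS (G12D) and 3 labelled SETBP1 (D868N) + EMPTY, chosen by their labels alone. The marrow came from female C57BL/6J mice of 6 to 10 weeks, and each library's cells had been transduced with a pair of retroviral vectors, so that every single-mutant library also carries an empty vector. The other 6 libraries, 3 with both vectors empty and 3 with both mutants, entered the fit and show where each gene stands outside the comparison. The labels call the cells murine leukemia cells of bone marrow, but do not state the vectors' promoter, the time between transduction and harvest, or whether replicates came from separate mice or cultures, so p-values measure the spread between these libraries, which may be technical. The groups are called NRAS, SETBP1, empty and SETBP1+NRAS below.

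NRAS is a small GTPase that passes signals from growth factor receptors through the kinases RAF, MEK and ERK, and the G12D change holds it in its active form. Active ERK switches on a set of transcripts that includes phosphatases and Sprouty-type proteins that damp the pathway again. SETBP1 binds DNA and the SET oncoprotein, an inhibitor of the phosphatase PP2A. Changes at D868 stabilise the protein, and it is known in myeloid cells for raising homeobox genes such as Hoxa9 and Hoxa10. Both genes are mutated in human myelodysplastic and myeloproliferative disorders, sometimes together.

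The introduced genes matched the labels. Nras, counted without regard to its origin, stood at 1427, 1423 and 1712 normalised CPM in the NRAS libraries and 86.7, 92.5 and 85.4 in the SETBP1 libraries (log2 4.11, SE 0.09, adjusted p 2.10e-12, and 4.09 without SETBP1 replicate 3). Setbp1 had 7, 7 and 5 reads in the SETBP1 libraries and 0 in each NRAS library, which makes it at least 5.96-fold higher with SETBP1 against a floor of 3 counts over the NRAS group. So few reads show only that the introduced gene was present, because the species and sequence of the transgene are not stated and its reads may have been counted in part. Normalised CPM here are counts divided by each library's effective size after TMM scaling (edgeR's default), and log2 values are fitted differences of NRAS minus SETBP1 with their standard error (SE). Where a gene is said to be higher by a value, or lower at a value, that value is this log2 difference, past the threshold given below. Where the libraries of both groups are listed, the groups did not overlap unless this is stated.

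The libraries held between 7335665 and 8864919 counts in these 2 groups. SETBP1 replicate 3 stood apart: its log2 CPM correlated across genes at 0.946 and 0.953 with the other SETBP1 libraries, against 0.984 to 0.991 for all other pairs within a group, it had a count for 11835 genes where the other 11 libraries had 12461 or more, and its 20 most abundant genes held 12.5% of its counts, against 9.85% to 11.3% elsewhere. It was higher than the other SETBP1 libraries in the summed level of the monocyte and macrophage list (45490 normalised CPM, against 24337 and 26566) and the lysosome list (26183, against 18823 and 17857). The counts of most lists, most list medians and most genes given library by library are also given without it.

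The 2 single-mutant states differed in 4495 of 10993 genes tested (40.9%), 2289 higher with NRAS (20.8%) and 2206 lower (20.1%), at a Benjamini-Hochberg adjusted p under 0.05 in edgeR's quasi-likelihood test. The shares of 20.8% and 20.1% are the background for the count of each list below. At least 2-fold differences were found in 594 genes higher (5.40%) and 626 lower (5.69%). Without SETBP1 replicate 3 the numbers were 4777 of 11112 genes (43.0%), 2550 higher and 2227 lower. Among the 10993 genes tested with all libraries, 3968 were called in the same direction in both fits and 0 changed direction. Of these genes 527 were called only with that library and 790 only without it. Calls among genes tested only without that library are left out of these counts. The libraries of the 2 groups did not overlap for 5318 genes (48.4%), with NRAS above for 25.0% of all genes and below for 23.4%. Against the empty vectors, which these comparisons share, 32.5% of genes differed with NRAS (17.0% higher and 15.5% lower) and 14.9% with SETBP1 (8.31% and 6.55%). These shares include SETBP1 replicate 3, whose spread enters the SETBP1 share. Shares against empty without that library are not given here, so the mutants are not ranked by them. In outline, NRAS libraries were higher in ERK target transcripts, secreted chemokines, osteopontin, proteases of the plasminogen system and genes of replication and ribosome production. SETBP1 libraries were higher than NRAS libraries in Hoxa genes, macrophage, antigen presentation and lysosome genes, and primary granule genes.

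**Figure D1:**
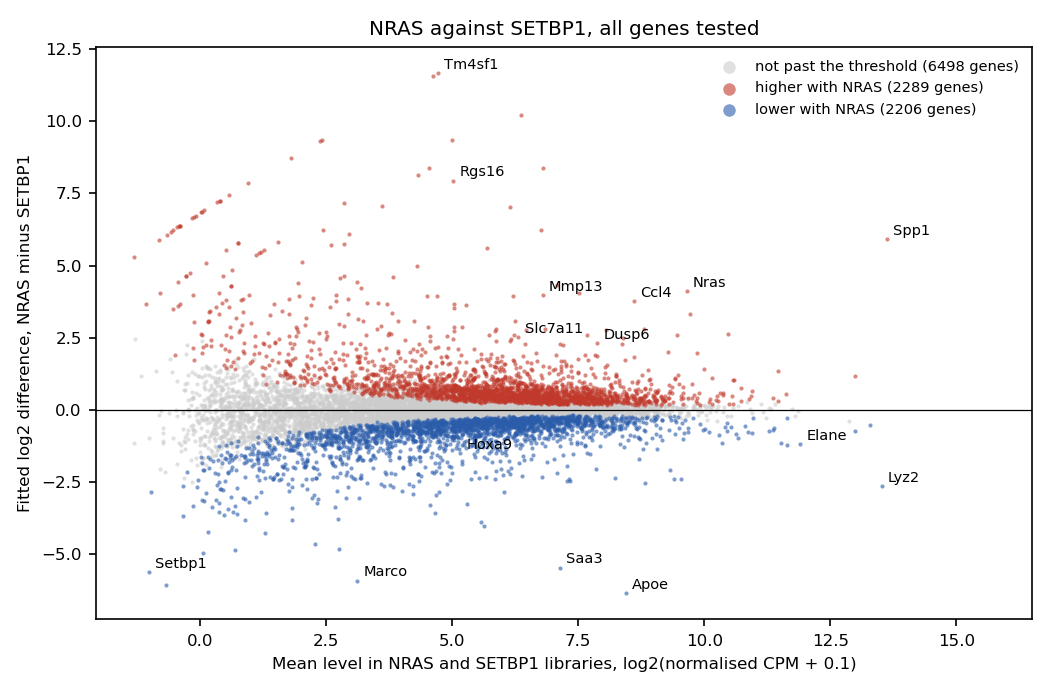
Each point is a gene tested, with its mean level over the NRAS and SETBP1 libraries on the x axis (log2 of normalised CPM + 0.1) and the fitted log2 difference, NRAS minus SETBP1, on the y axis; 2289 genes are past the threshold above 0 and 2206 below it. For genes with 0 counts in a whole group, such as Tm4sf1 and Setbp1, the fitted value is not a fold change.

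**Figure D2:**
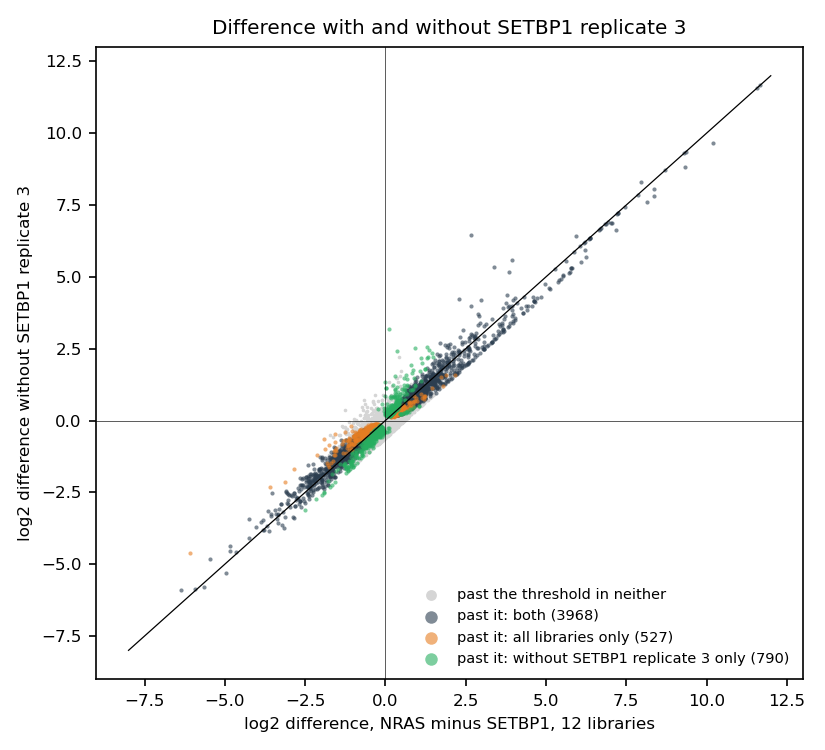
The log2 difference of each gene with all 12 libraries (x axis) is set against the same difference without SETBP1 replicate 3 (y axis), with a line where both are equal. The 3968 genes past the threshold in both are dark, the 527 past it only with all libraries orange and the 790 past it only without that replicate green.

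Transcripts known as output of the MAPK pathway were mostly higher with NRAS. Of 15 members tested, 12 were higher with NRAS, 0 lower and 3 not past the threshold (12 higher and 0 lower without SETBP1 replicate 3), and the median log2 difference was 2.32, and 2.31 without SETBP1 replicate 3, beside 20.8% of all genes higher and 20.1% lower. The median of all genes was -0.003 with and -0.008 without that library. Dusp6, a phosphatase that inactivates ERK, was at 380.3, 394 and 399 normalised CPM in the NRAS libraries and 81.2, 70.3 and 83.6 in the SETBP1 libraries (log2 2.32, SE 0.08, adjusted p 2.52e-10, and 2.37 without SETBP1 replicate 3). Empty libraries held 85 ± 4.47 normalised CPM (SD, n = 3), near SETBP1 and far from NRAS. Dusp5 and Dusp4, phosphatases of the same family, were higher by 2.46 and 3.43. Spry4, an inhibitor of receptor signalling to RAS, stood at 7.8, 6.36 and 7.23 normalised CPM in the NRAS libraries and 0.843, 0 and 0.118 in the SETBP1 libraries (log2 4.38, SE 0.60, adjusted p 8.57e-05, and 3.98 without SETBP1 replicate 3). Its relatives Spred1 and Spred2 were higher by 1.79 and 1.08, while Spry1 at 0.07 (adjusted p 0.854), Spry2 at -0.27 (0.566) and Spred3 at 0.15 (0.873) were not past the threshold. The call of Spred2 was lost when only the 6 libraries compared were fitted, without NRAS replicate 3 and without SETBP1 replicate 2 (adjusted p of 0.0520 to 0.0720).

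The ETS factors Etv1, Etv4 and Etv5, which ERK both induces and activates, were higher with NRAS by 2.75, 1.92 and 1.82. Ccnd1, the cyclin that couples growth signals to the cell cycle, was at 95, 104 and 104 normalised CPM in the NRAS libraries and 14.8, 19.2 and 9.94 in the SETBP1 libraries (log2 2.79, SE 0.18, adjusted p 9.50e-08, 2.58 without replicate 3). Phlda1 was at 61.8, 66.4 and 63.1 normalised CPM in the NRAS libraries and 5.18, 4.57 and 16 in the SETBP1 libraries, so that SETBP1 replicate 3 lay above the other SETBP1 libraries, and its difference of 2.88 became 3.70 without that library. Epha2, a receptor tyrosine kinase gene that ERK signalling is known to raise, was at 14.4, 14.9 and 17.5 normalised CPM with NRAS and 1.45, 1.57 and 2.25 with SETBP1 (log2 3.14, SE 0.26, adjusted p 8.08e-07, 3.36 without replicate 3). The SETBP1+NRAS libraries entered the fit but are not among the groups compared. Their levels were 399 ± 21.1 normalised CPM (SD, n = 3) for Dusp6, 121 ± 3.14 normalised CPM (SD, n = 3) for Ccnd1 and 20.3 ± 2.66 normalised CPM (SD, n = 3) for Epha2.

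**Figure D3:**
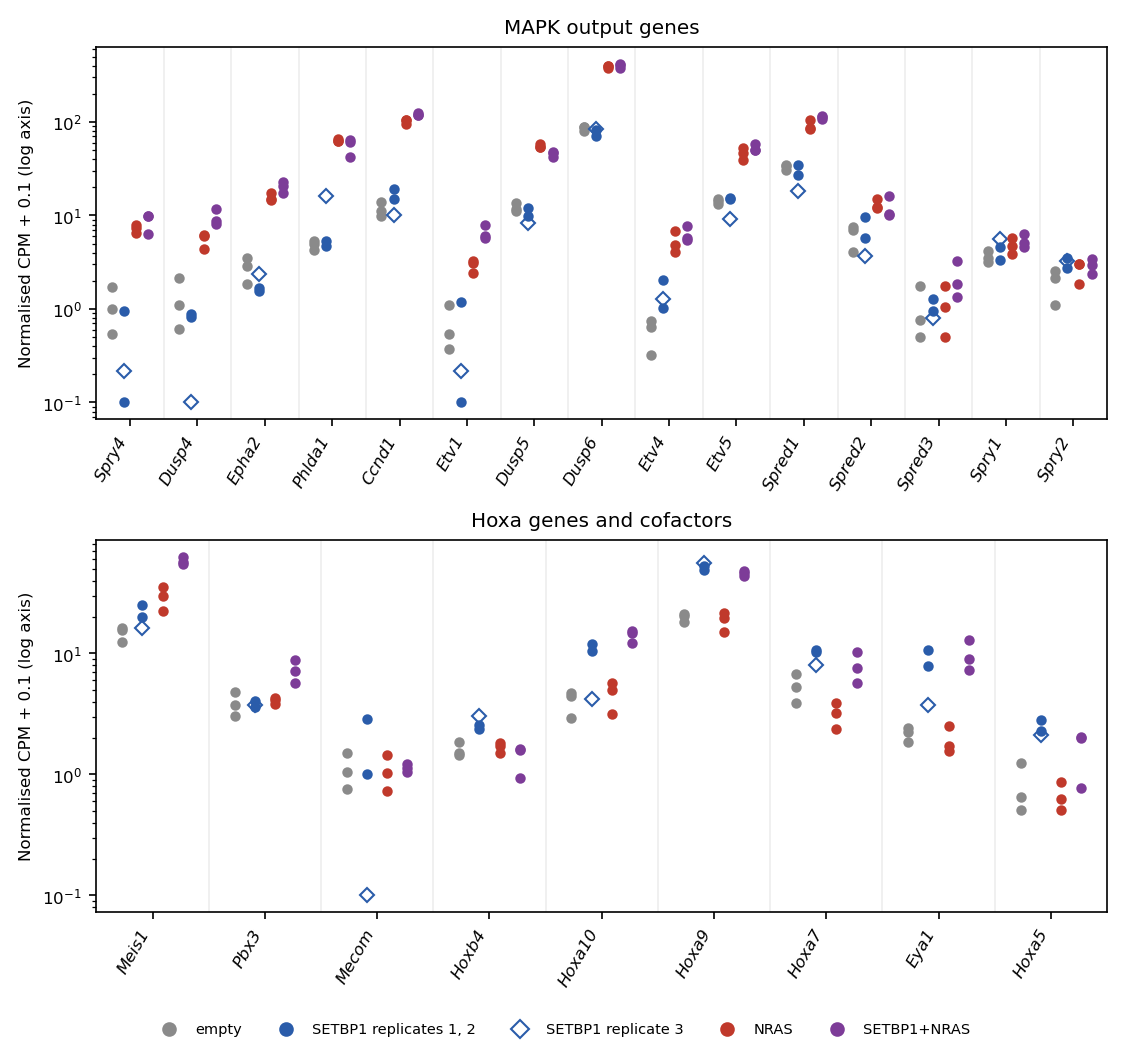
Normalised CPM + 0.1 on a log axis for each tested member of the MAPK output list (top) and for 9 tested members of the list of Hoxa genes and cofactors (bottom), 1 point per library in the 4 groups, SETBP1 replicate 3 as an open diamond. For Dusp6 the NRAS libraries lie between 380.3 and 399, above all SETBP1 libraries, and for Hoxa9 the SETBP1 libraries lie between 48.6 and 56.1, above all NRAS libraries.

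Sequence upstream of these genes was read from RefSeq promoters on GRCm38.p6, the same build as the mm10 of the submitters' processing notes. Of the 12 called genes 7 had an entry, with 9 start sites. In the 250 bases before each start, both strands were searched for TGANTCA (the AP-1 motif, bound by Fos and Jun factors), TGACGTCA (the cAMP response element, CRE) and CCGGAAGT (an ETS motif) on the letters given, and a match of one of these motifs never holds a full match of another. Over all 32851 promoters in the table, 6.75%, 1.55% and 2.88% held them. Among the 7 genes 1 held a match, a CRE upstream of Epha2, and 0 held either of the others. The Epha2 stretch, chr4:141300971-141301220 on the plus strand, and that of Dusp6, chr10:99262981-99263230 on the plus strand, are shown because the first holds the match and the second, with 0 matches, belongs to the ERK phosphatase described above. Capitals mark the CRE. A match in these letters is not a binding site.
Epha2: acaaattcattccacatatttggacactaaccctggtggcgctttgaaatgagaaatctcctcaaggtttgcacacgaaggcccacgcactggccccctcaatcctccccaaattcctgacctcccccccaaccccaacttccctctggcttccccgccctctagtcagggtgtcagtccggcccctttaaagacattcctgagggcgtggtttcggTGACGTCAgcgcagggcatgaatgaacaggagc
Dusp6: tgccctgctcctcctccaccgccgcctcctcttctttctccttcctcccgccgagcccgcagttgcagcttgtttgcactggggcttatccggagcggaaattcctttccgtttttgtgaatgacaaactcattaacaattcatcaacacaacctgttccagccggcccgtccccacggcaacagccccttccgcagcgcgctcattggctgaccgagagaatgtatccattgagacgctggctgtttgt

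Immediate-early genes, whose transcripts follow growth factor signals within minutes, went both ways: 10 were higher with NRAS, 2 lower and 8 not past the threshold (12 higher and 2 lower without SETBP1 replicate 3), with a median of 0.51, and 0.64 without SETBP1 replicate 3. Egr1, a zinc finger factor, was at 143, 142 and 178 normalised CPM with NRAS and 31.9, 15 and 20.4 with SETBP1 (log2 2.78, SE 0.23, adjusted p 1.07e-06, 2.71 without replicate 3). Fosl1, a Fos family member that lasts longer under sustained ERK signalling, was at 44.1, 39.6 and 43.2 normalised CPM with NRAS and 3.25, 2.09 and 2.84 with SETBP1 (log2 3.94, SE 0.18, adjusted p 4.06e-09, 3.97 without replicate 3). Egr3 was higher by 3.89, Fosl2 by 1.30 and Jun by 0.99. Both calls in the other direction were Fos and Klf4. Fos was at 23.9, 22.5 and 20.9 normalised CPM with NRAS and 47.7, 24.8 and 56.1 with SETBP1 (log2 -0.94, SE 0.23, adjusted p 0.00497, -0.70 without replicate 3), and SETBP1 replicate 2 lay close to the NRAS libraries. Klf4, a factor of monocyte differentiation, was at 3.83, 1.62 and 2.41 normalised CPM with NRAS and 11.8, 10.7 and 19.5 with SETBP1 (log2 -2.41, SE 0.35, adjusted p 1.28e-04, -2.09 without replicate 3). Myc was not past the threshold, at -0.11 (adjusted p 0.272), nor were Ier2 at -0.09 (0.607) and Ier3 at -0.16 (0.452). Junb and Egr2 were past it only without SETBP1 replicate 3, at 0.26 and 1.77, against 0.10 and 0.87 with it. Nr4a1, higher by 1.22, was past it only with that library.

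Genes of the RAS and MAPK core itself, Nras included, had calls in both directions. Of these, 8 were higher with NRAS, 7 lower and 13 not past the threshold (9 higher and 9 lower without SETBP1 replicate 3). Over all genes, 20.8% were higher and 20.1% lower, so a split is not particular to this list. Its median was -0.01, and 0.02 without SETBP1 replicate 3. Rasa2, which switches RAS off, was at 82.8, 88.3 and 91.8 normalised CPM with NRAS and 34, 37.2 and 28.2 with SETBP1 (log2 1.41, SE 0.11, adjusted p 6.42e-07, 1.30 without replicate 3). Map2k1, the gene of MEK1, was higher by 0.52. Mapk3, the gene of ERK1, was lower, at -0.74, and the exchange factors Rasgrp1 and Rasgrp4 at -1.22 and -1.10. Rras, a RAS relative, was at 4.76, 4.74 and 5.07 normalised CPM with NRAS and 14.2, 17.2 and 36 with SETBP1 (log2 -2.21, SE 0.34, adjusted p 1.92e-04, -1.69 without replicate 3). Hras, Braf and Nf1, at 0.01, 0.31 and 0.31, were not past the threshold (adjusted p 0.955, 0.0936 and 0.305). In the list of SET and PP2A subunits, Setbp1 included, 7 were higher with NRAS, 2 lower and 6 not past the threshold (9 higher and 1 lower without SETBP1 replicate 3). Set itself was higher by 0.40 (adjusted p 0.00329) and the regulatory subunit Ppp2r2a was at 168, 169.7 and 194 normalised CPM with NRAS and 105, 97.9 and 70.5 with SETBP1 (log2 0.96, SE 0.13, adjusted p 5.96e-05, 0.80 without replicate 3). The catalytic subunit Ppp2cb was lower, at -0.44, with SETBP1 replicate 3 at 268 normalised CPM and the other 5 libraries between 136 and 162, and this call was lost in 15 of 25 alternatives, without SETBP1 replicate 3 among them (-0.14, adjusted p 0.182).

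Most tested members of the list of Hoxa genes and their cofactors were higher with SETBP1. Of 12 members tested, 1 was higher with NRAS, 7 lower and 4 not past the threshold (0 higher and 7 lower without SETBP1 replicate 3), and the median was -1.22, and -1.37 without SETBP1 replicate 3. Hoxa9, a homeobox factor that sustains myeloid progenitor growth, was at 14.9, 19.6 and 21.3 normalised CPM with NRAS and 53, 48.6 and 56.1 with SETBP1 (log2 -1.50, SE 0.13, adjusted p 1.77e-06, -1.45 without replicate 3). Empty libraries held 19.8 ± 1.38 normalised CPM (SD, n = 3), near the NRAS libraries, and SETBP1+NRAS libraries 45.9 ± 2.4 normalised CPM (SD, n = 3), near SETBP1. Hoxa7 was at 3.83, 3.11 and 2.28 normalised CPM with NRAS and 10.6, 10.2 and 7.93 with SETBP1 (log2 -1.63, SE 0.30, adjusted p 7.29e-04, -1.75 without replicate 3). Hoxa5 was lower with NRAS, at -1.99. Hoxa10 stood at 3.04, 4.87 and 5.58 normalised CPM with NRAS and 10.4, 11.8 and 4.14 with SETBP1, with overlapping groups, and its difference of -0.95 (adjusted p 0.0434) was -1.29 without SETBP1 replicate 3. That gene lost its call in 13 of 25 alternatives, among them the replicate block, with adjusted p of up to 0.156.

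Eya1, a transcriptional coactivator of development, was at 1.45, 1.62 and 2.41 normalised CPM with NRAS and 10.6, 7.71 and 3.67 with SETBP1 (log2 -1.99, SE 0.40, adjusted p 0.00148, -2.31 without replicate 3), with 2.08 ± 0.293 normalised CPM (SD, n = 3) in empty libraries. Compared with empty on the log2 scale, Eya1 was at -0.19 with NRAS (adjusted p 0.791) and 1.80 with SETBP1 (0.011), and these comparisons share the empty libraries. Meis1, a Hoxa9 cofactor, went the other way, at 22.5, 29.8 and 35.5 normalised CPM with NRAS and 19.9, 25 and 16.2 with SETBP1 with overlapping groups (0.53, adjusted p 0.0361), and lost its call in 11 of 25 alternatives, without SETBP1 replicate 3 among them (adjusted p 0.0676). Pbx3, Mecom and Hoxb4 were not past it.

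Genes with the largest differences were named by a rule that asked for a call with and without SETBP1 replicate 3 and no overlap between the groups. On the NRAS side 6 of the 10 belong to the stefins, a mouse cluster of near-identical cysteine protease inhibitors, among which reads may be split, so the value of each is uncertain. Gm5483 was at 219, 231 and 215 normalised CPM with NRAS and 0.723, 0.915 and 0.355 with SETBP1 (log2 8.37, SE 0.26, adjusted p 6.49e-11, 8.06 without replicate 3). BC100530 was at 169.8, 173 and 152 normalised CPM with NRAS and 0.241, 0.131 and 0 with SETBP1, a ratio of 1341 with a 95% counting interval of 458 to 6504. Stfa1, Stfa2 and Stfa3 stood between 37.4 and 66.6 in the NRAS libraries and at or under 0.261 in the SETBP1 libraries, with ratios of 772 (213 to 6379), 375 (128 to 1819) and 319.8 (109 to 1554). Gm5416 had 0 counts in each SETBP1 library and was at least 395-fold higher with NRAS against the floor. Empty libraries held 0.767 or less on average for each of these 6 genes, and those with both mutants held between 29.9 and 186 on average.

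Tm4sf1, a membrane protein of endothelial and tumour cells, was at 55.9, 50.9 and 49.9 normalised CPM with NRAS and 0, 0 and 0 with SETBP1, at least 425-fold higher. Rgs16, which switches off G protein signals, was at 48, 61.7 and 83.9 normalised CPM with NRAS and 0.12, 0.261 and 0.355 with SETBP1 (log2 7.95, SE 0.39, adjusted p 6.60e-09, 8.31 without replicate 3). Emp2, a membrane protein that binds integrins, was at 19.4, 21.6 and 31.2 normalised CPM with NRAS and 0.361, 0 and 0.118 with SETBP1 (log2 7.07, SE 0.41, adjusted p 3.96e-08, 6.89 without replicate 3). Ctnnd2, a catenin best known in neurons, was at 10.8, 14.7 and 16.7 normalised CPM with NRAS and 0.12, 0.131 and 0 with SETBP1, a ratio of 173 (95% counting interval 47.4 to 1431). All 4 were near or at 0 in the SETBP1 and in the empty libraries and between 18.8 and 54.7 normalised CPM on average with both mutants.

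On the SETBP1 side the largest difference was that of Apoe. Apoe, which carries cholesterol out of macrophages, was at 11.8, 9.88 and 3.68 normalised CPM with NRAS and 463, 548 and 1055 with SETBP1 (log2 -6.36, SE 0.39, adjusted p 6.01e-08, -5.91 without replicate 3). Empty libraries lay between, at 233 ± 25.5 normalised CPM (SD, n = 3). Saa3, an acute-phase amyloid protein, was at 5.68, 7.04 and 5.83 normalised CPM with NRAS and 170.3, 184 and 470.3 with SETBP1 (log2 -5.47, SE 0.41, adjusted p 3.78e-07, -4.84 without replicate 3), with 22 ± 2.35 normalised CPM (SD, n = 3) in empty libraries. Marco, a scavenger receptor for bacteria, was at 0.396, 0.271 and 0.127 normalised CPM with NRAS and 15.1, 17.2 and 18.3 with SETBP1 (log2 -5.92, SE 0.56, adjusted p 2.92e-06, -5.86 without replicate 3), with 1.04 ± 0.674 normalised CPM (SD, n = 3) in empty libraries. Cfb, a factor of the alternative complement pathway, was at 4.49, 7.85 and 4.69 normalised CPM with NRAS and 71.7, 77.1 and 129 with SETBP1 (log2 -4.03, SE 0.34, adjusted p 1.05e-06, -3.71 without replicate 3). Aif1, a calcium-binding protein of macrophages, was lower with NRAS, at -3.57, and Adgre4, an adhesion receptor of the same cells, at -4.65. Ly6i, which has close relatives in the Ly6 family, was at 3.96, 7.44 and 6.72 normalised CPM with NRAS and 62.1, 77.5 and 127 with SETBP1 (log2 -3.88, SE 0.32, adjusted p 8.01e-07, -3.52 without replicate 3). Slc36a2, Tctex1d1 and Abca1 were lower, at -4.83, -3.82 and -3.79. Compared with empty on the log2 scale, Saa3 was at -1.83 with NRAS (adjusted p 0.00403) and 3.64 with SETBP1 (2.26e-04), and Apoe at -4.79 (5.33e-07) and 1.56 (0.00579), again with the empty libraries shared.

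The samples' labelled tissue was checked against markers. Genes of marrow myeloid cells were abundant in both groups, while the 4 globin genes Hba-a1, Hba-a2, Hbb-bs and Hbb-bt had 0 counts in each of the 12 libraries. How reads shared by near copies were counted is not given in the sources used here. Eno1, a glycolytic enzyme gene that every cell uses, had only 3 counts over the NRAS and 2 over the SETBP1 libraries, so a 0 here does not show that a transcript was missing. Of the lymphoid lists, 8 of 11 B cell members and 11 of 16 T and NK members were too low to test, with Cd3e, Cd8a and Pax5 at 0 counts in each library. In bulk RNA, fewer cells of a type and less RNA per cell cannot be told apart, so the lists below describe transcripts and not cell numbers.

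Primary granule genes, which promyelocytes express first among granule proteins, were lower with NRAS: 2 were higher with NRAS, 7 lower and 3 not past the threshold (3 higher and 8 lower without SETBP1 replicate 3), with a median of -0.50, and -0.52 without SETBP1 replicate 3. Elane, the gene of neutrophil elastase, was at 2622, 2355 and 2010.2 normalised CPM with NRAS and 4761, 5419 and 5775 with SETBP1 (log2 -1.19, SE 0.10, adjusted p 1.33e-06, -1.13 without replicate 3). Prtn3, a related protease, was at 934, 832 and 661 normalised CPM with NRAS and 1679, 1862 and 1857 with SETBP1 (log2 -1.15, SE 0.10, adjusted p 1.63e-06, -1.13 without replicate 3). Mpo, myeloperoxidase, was at 6271, 6257 and 5837 normalised CPM with NRAS and 11255, 10651 and 8697 with SETBP1 (log2 -0.74, SE 0.10, adjusted p 5.16e-05, -0.84 without replicate 3). For all 3 genes the libraries with both mutants lay lower still, at 1309.7 ± 59.1 normalised CPM (SD, n = 3) for Elane, 546 ± 9.24 normalised CPM (SD, n = 3) for Prtn3 and 3038 ± 243 normalised CPM (SD, n = 3) for Mpo. Compared with empty on the log2 scale, Elane was at -1.47 with NRAS (adjusted p 1.97e-07) and -0.28 with SETBP1 (0.0795). Prtn3 was at -1.14 (1.74e-06) and 0.01 (0.948), and these comparisons share the empty libraries. Neither gene was past the threshold with SETBP1 against empty. Prss57 and Clec12a, a protease and an inhibitory lectin of the same cells, were lower, at -1.51 and -1.01, and Ctsg and Gfi1, a protease and the repressor that drives granulocyte fate, at -0.50 and -0.50. Higher were Hk3, a hexokinase, by 0.87, and the granule proteoglycan Srgn, by 0.49. With SETBP1 against empty, Prss57 was past the threshold, at -0.79 (adjusted p 0.00175), and Clec12a was not, at -0.02 (0.870). Log2 CPM averaged over the tested members of the list was 9.40 to 9.54 in the SETBP1 libraries. It was 9.70 to 9.76 in the empty libraries and 8.90 to 9.06 in the NRAS libraries.

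Late neutrophil genes went both ways. Of 24 tested, 7 were higher with NRAS, 12 lower and 5 not past the threshold (8 higher and 12 lower without SETBP1 replicate 3), with a median of -0.40, and -0.49 without SETBP1 replicate 3. Camp, the cathelicidin of secondary granules, was at 79.3, 54 and 49.9 normalised CPM with NRAS and 242, 178 and 172 with SETBP1 (log2 -1.69, SE 0.16, adjusted p 3.84e-06, -1.78 without replicate 3). Ltf, Ngp and Mmp8, which encode lactoferrin and other proteins of those granules, were lower, at -0.90, -0.97 and -1.21. Chil1, a chitinase-like protein, was at 5.02, 5.28 and 4.94 normalised CPM with NRAS and 40.7, 29.5 and 25.9 with SETBP1 (log2 -2.65, SE 0.21, adjusted p 6.35e-07, -2.79 without replicate 3). The formyl peptide receptors Fpr1 and Fpr2 and the receptor Csf3r were lower, at -1.64, -1.17 and -0.81. In contrast Retnlg, a resistin-like protein of mature neutrophils, was at 33.6, 22.6 and 27.8 normalised CPM with NRAS and 5.06, 9.02 and 1.77 with SETBP1 (log2 2.42, SE 0.38, adjusted p 2.32e-04, 2.00 without replicate 3). Mmp9, the gelatinase of tertiary granules, was at 134, 128 and 172 normalised CPM with NRAS and 38.3, 37.2 and 14.6 with SETBP1 (log2 2.27, SE 0.26, adjusted p 1.83e-05, 1.94 without replicate 3), and the chemokine receptor Cxcr2 was higher by 1.61. S100a8 and S100a9, calcium-binding proteins of neutrophil cytoplasm, were higher by 1.04 and 0.77. Stfa2l1, another stefin, was higher by 6.08. For Retnlg and Mmp9 the empty libraries, at 27.6 ± 4.35 normalised CPM (SD, n = 3) and 74.3 ± 7.98 normalised CPM (SD, n = 3), lay above SETBP1.

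Monocyte and macrophage genes were lower with NRAS, more of them than in any other list here. Of 34 tested, 4 were higher with NRAS, 23 lower and 7 not past the threshold, and 6 were higher and 23 lower without SETBP1 replicate 3. The median was -1.36, and -1.28 without SETBP1 replicate 3, and the summed level ran from 10133 to 11588 normalised CPM with NRAS and from 24337 to 45490 with SETBP1. Lyz2, macrophage lysozyme, was at 3562, 3336 and 2850.3 normalised CPM with NRAS and 14143, 16376 and 30094 with SETBP1 (log2 -2.64, SE 0.23, adjusted p 1.25e-06, -2.23 without replicate 3). Its neighbour and near copy Lyz1 was lower, at -2.83. The complement genes C1qa, C1qb and C1qc were lower, at -2.86, -2.35 and -2.48, with C1qa at 22.7, 14.2 and 10.6 normalised CPM with NRAS and 95.1, 86.6 and 162 with SETBP1 (log2 -2.52 without SETBP1 replicate 3). Csf1r, the receptor for macrophage colony-stimulating factor, was at 267, 259.6 and 256 normalised CPM with NRAS and 389, 418 and 624 with SETBP1 (log2 -0.87, SE 0.13, adjusted p 2.05e-04, -0.63 without replicate 3). Irf8, a factor of the monocyte lineage, was at 111, 113 and 94.9 normalised CPM with NRAS and 236, 283 and 385 with SETBP1 (log2 -1.51, SE 0.16, adjusted p 7.82e-06, -1.29 without replicate 3). The receptors Tlr2, Cx3cr1 and Adgre1 (F4/80) were lower, at -2.28, -2.43 and -1.55, and the protease Ctss at -2.08. SETBP1 replicate 3 was the highest of the 6 libraries for each of these except Lyz1 and Cx3cr1, and the 2 other SETBP1 libraries also lay above all NRAS libraries for each. The part of this list's level in the differences of other lists was not tested.

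A few members of the same list were higher with NRAS. Cd14, a co-receptor for lipopolysaccharide, was at 365, 346 and 363 normalised CPM with NRAS and 63.7, 80 and 147 with SETBP1 (log2 1.89, SE 0.24, adjusted p 4.61e-05, 2.32 without replicate 3). Cd36, a lipid scavenger receptor, and Itgam, the integrin CD11b, were higher by 1.27 and 1.20, and Mrc1, the mannose receptor, by 0.63. Not past the threshold were Cd68 at -0.37 (adjusted p 0.111), Lgals3 at -0.39 (0.156) and Tlr4 at 0.13 (0.38).

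Antigen presentation genes were lower with NRAS as well. In the list of 14 MHC class II and dendritic genes tested, 1 was higher with NRAS, 8 lower and 5 not past the threshold (3 higher and 8 lower without SETBP1 replicate 3), with a median of -1.10, and -0.80 without SETBP1 replicate 3. H2-Aa, a class II chain, was at 32, 23.8 and 28.9 normalised CPM with NRAS and 106, 105 and 135 with SETBP1 (log2 -2.03, SE 0.19, adjusted p 2.28e-06, -1.90 without replicate 3). H2-Ab1 and H2-Eb1 were lower, at -1.96 and -2.13, the invariant chain Cd74 at -1.04, and Ciita, the regulator that switches these genes on, at -1.89. The exception was Itgax, the integrin CD11c, at 16, 14.6 and 19.3 normalised CPM with NRAS and 2.89, 2.61 and 0.473 with SETBP1 (log2 3.06, SE 0.39, adjusted p 4.21e-05, 2.59 without replicate 3). Dendritic markers Zbtb46, Clec9a, Xcr1, Siglech and Cd209a were too low to test.

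**Figure D4:**
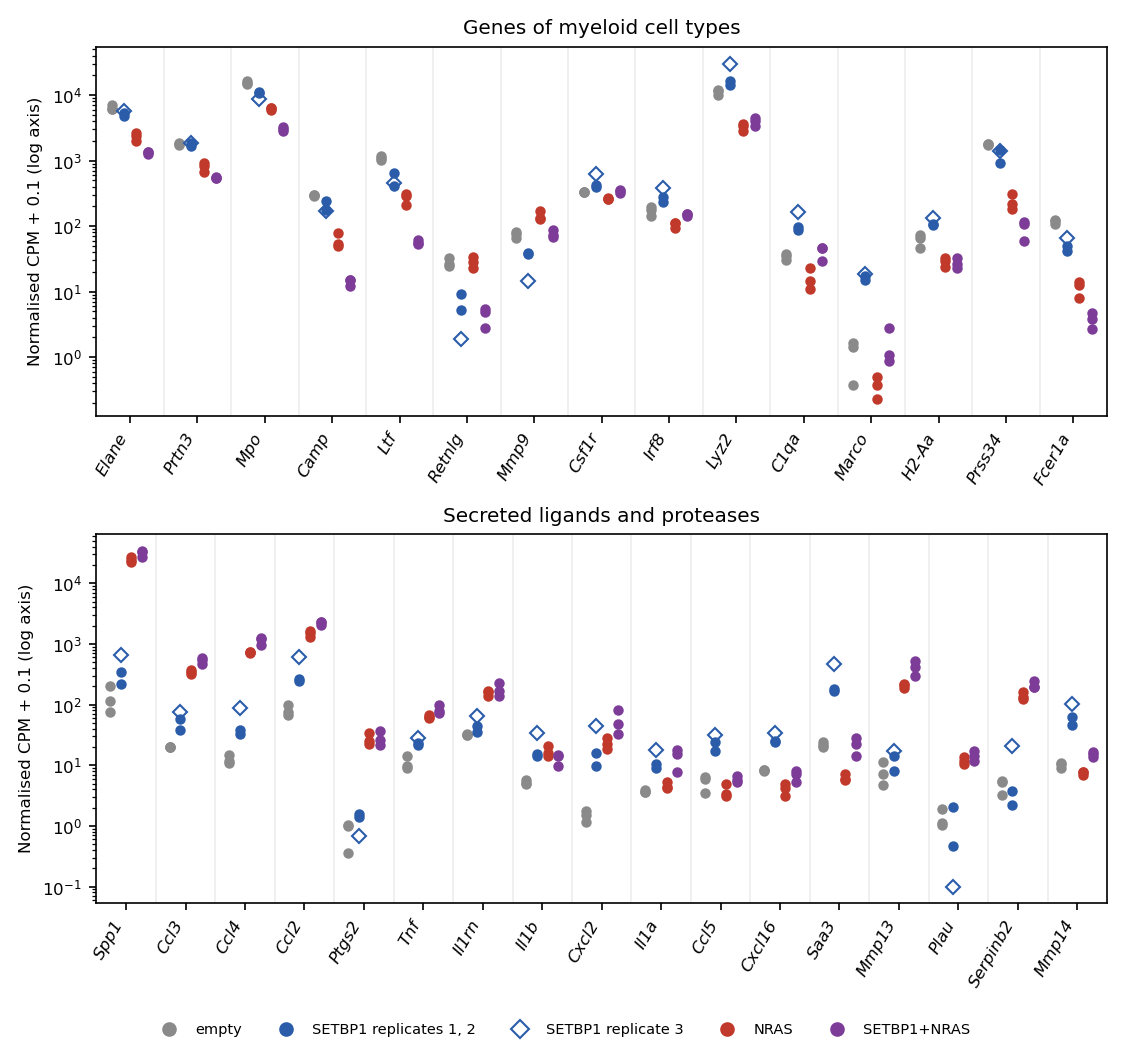
Normalised CPM + 0.1 on a log axis, 1 point per library in the 4 groups, for genes of myeloid cell types (top) and for secreted ligands and proteases (bottom), with SETBP1 replicate 3 as an open diamond. Elane, Lyz2, Marco and Saa3 lie lower in all NRAS libraries than in all SETBP1 libraries, and Spp1, Ccl4, Mmp13 and Ptgs2 lie higher.

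Among mast cell and basophil genes 3 were higher with NRAS, 5 lower and 6 not past the threshold (3 higher and 6 lower without SETBP1 replicate 3), with a median of 0.01, and -0.14 without SETBP1 replicate 3. The basophil genes Prss34, Mcpt8 and Fcer1a, a protease pair and the IgE receptor chain, were lower with NRAS. Prss34 was at 185, 216 and 304 normalised CPM with NRAS and 1432, 929.8 and 1404 with SETBP1 (log2 -2.42, SE 0.24, adjusted p 4.42e-06, -2.33 without replicate 3). Fcer1a was at 7.8, 12.3 and 13.9 normalised CPM with NRAS and 49, 42.2 and 66.1 with SETBP1 (log2 -2.21, SE 0.21, adjusted p 3.98e-06, -2.003 without replicate 3), and Mcpt8 was lower, at -1.18. Empty libraries held 1758 ± 38.3 normalised CPM (SD, n = 3) of Prss34 and 117 ± 7.66 normalised CPM (SD, n = 3) of Fcer1a, above both single mutants on average. Gzmb, a granzyme that mast cells and lymphocytes use, was at 45.6, 56.8 and 77.8 normalised CPM with NRAS and 3.01, 10.5 and 0.947 with SETBP1 (log2 3.67, SE 0.46, adjusted p 3.68e-05, 3.18 without replicate 3). Hdc, which makes histamine, was higher by 1.14. Cpa3 at -0.43 (adjusted p 0.251) was past the threshold only without SETBP1 replicate 3, at -0.62. Eosinophil genes gave 1 call of 6, Siglecf, lower, at -0.72 (0 higher and 2 lower without SETBP1 replicate 3). Their median was 0.35, and -0.21 without SETBP1 replicate 3. The granule genes Prg2 and Epx varied within groups, with Prg2 at 75.2, 96.2 and 139 normalised CPM with NRAS and 27.3, 126 and 0.592 with SETBP1 and overlapping groups (adjusted p 0.33, log2 1.02, and 0.45 without SETBP1 replicate 3).

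Platelet genes were mostly lower with NRAS: 3 were higher with NRAS, 8 lower and 2 not past the threshold (3 higher and 7 lower without SETBP1 replicate 3), with a median of -1.27, and -0.68 without SETBP1 replicate 3. Ppbp, a platelet chemokine precursor, was at 36.6, 22.5 and 24.8 normalised CPM with NRAS and 71.1, 62.6 and 151 with SETBP1 (log2 -1.76, SE 0.29, adjusted p 4.03e-04, -1.26 without replicate 3). Pf4, another platelet chemokine, was lower, at -1.56, or -0.95 without SETBP1 replicate 3. Vwf, Gp1bb and Gp9, which encode von Willebrand factor and chains of its receptor, were lower, at -1.99, -2.35 and -2.41. Without SETBP1 replicate 3 they were at -2.20, -1.87 and -1.54. The summed level of the list was 605, 609 and 1020 normalised CPM in SETBP1 replicates 1, 2 and 3, and 607 to 664 with NRAS. SETBP1 replicate 3 alone thus lay above the NRAS libraries in that sum. Gp1ba was lower, at -1.27, a call lost without that library. Higher were Selp, Nbeal2 and Cd9, by 0.77, 0.60 and 0.58. Of 5 erythroid genes tested, Gfi1b was higher by 1.27 and Car2 lower, at -0.85, while Gata1, Klf1 and Epor were not past the threshold.

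Stem and progenitor genes were lower more often than higher: 2 were higher with NRAS, 7 lower and 10 not past the threshold (2 higher and 8 lower without SETBP1 replicate 3), with a median of -0.27, and -0.51 without SETBP1 replicate 3. Ly6a, the stem cell antigen Sca-1, was at 272, 347 and 273 normalised CPM with NRAS and 610.1, 672 and 1032 with SETBP1 (log2 -1.38, SE 0.18, adjusted p 6.08e-05, -1.11 without replicate 3). Cd27, a TNF receptor family member of progenitors, was at 0.661, 2.84 and 1.27 normalised CPM with NRAS and 11.7, 13.2 and 9.11 with SETBP1 (log2 -2.83, SE 0.38, adjusted p 6.96e-05, -2.96 without replicate 3). Sox4, Prom1 and Myb were lower, at -1.08, -0.73 and -0.61. Procr, a stem cell surface receptor, and Cd34 were higher by 1.05 and 0.80. Kit, the stem cell factor receptor, was at -0.38 (adjusted p 0.396), and was past the threshold only without SETBP1 replicate 3, at -0.79. The 3 stromal and endothelial genes that could be tested, Kdr, Pdgfrb and Pecam1, were all higher with NRAS, by 2.59, 2.55 and 1.58. Of that list Pecam1, which blood cells also express, was at 173, 236 and 279 normalised CPM with NRAS and 80, 72.1 and 78.9 with SETBP1, Pdgfrb had at most 7.23 normalised CPM in a library, and 10 of 13 members, among them the collagens and Cdh5, were too low to test. Of the 3 B cell genes tested, Cd22 and Cd79b, an inhibitory and a signalling chain at the B cell receptor, were lower, at -2.10 and -0.82, with Cd22 at 0.793, 0.406 and 0.507 normalised CPM with NRAS and 1.2, 4.05 and 2.25 with SETBP1 (log2 -2.16 without SETBP1 replicate 3). The 5 tested T and NK members split as well, with Lck and Lat, kinase and adaptor of T cell receptor signalling, higher by 1.11 and 1.09 and Nkg7 and Thy1 lower, at -1.20 and -1.65.

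Secreted ligands differed in both directions and in large amounts. Of 25 chemokine and cytokine genes tested, 13 were higher with NRAS, 4 lower and 8 not past the threshold, and 16 were higher and 4 lower without SETBP1 replicate 3, with a median of 0.82, and 1.07 without SETBP1 replicate 3. Spp1, osteopontin, a secreted phosphoprotein that binds integrins and CD44, was at 22875, 24703 and 26698 normalised CPM with NRAS and 351, 222 and 646 with SETBP1 (log2 5.93, SE 0.41, adjusted p 1.89e-07, 6.43 without replicate 3). The summed level of the list, 30578 to 33794 normalised CPM with NRAS against 3722 to 6939 with SETBP1, was with NRAS mostly Spp1. Ccl3, a macrophage inflammatory chemokine, was at 324, 344 and 377 normalised CPM with NRAS and 57.8, 38.3 and 75.8 with SETBP1 (log2 2.60, SE 0.18, adjusted p 1.54e-07, 2.85 without replicate 3). Its relative Ccl4 was at 698, 735 and 743 normalised CPM with NRAS and 37.8, 32.7 and 87.6 with SETBP1 (log2 3.78, SE 0.28, adjusted p 3.78e-07, 4.36 without replicate 3). Ccl2 and Ccl7, which attract monocytes, were higher by 1.98 and 2.01. Ptgs2, the inducible cyclooxygenase, was at 25.2, 22.3 and 33.6 normalised CPM with NRAS and 1.45, 1.31 and 0.592 with SETBP1 (log2 4.59, SE 0.34, adjusted p 3.93e-07, 4.28 without replicate 3). Csf3, which encodes granulocyte colony-stimulating factor, had 0 counts in each SETBP1 and empty library, 0.529, 1.49 and 0.761 normalised CPM in the NRAS libraries and 11.8 ± 6.56 normalised CPM (SD, n = 3) with both mutants, and was at least 7.53-fold higher with NRAS than with SETBP1 against the floor. Tnf was higher by 1.39, and Il1rn, which blocks the interleukin-1 receptor, by 1.68.

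Lower with NRAS besides Saa3 were Cxcl16, at 4.76, 4.06 and 3.04 normalised CPM with NRAS and 25.3, 24 and 34.4 with SETBP1 (log2 -2.82, SE 0.23, adjusted p 7.21e-07, -2.64 without replicate 3), the chemokine Ccl5, at -2.69, and Il1a, at -1.45. Il1b, at 15.7, 14.3 and 20.4 normalised CPM with NRAS and 15.2, 14.1 and 34.4 with SETBP1 with overlapping groups (log2 -0.34, adjusted p 0.384, and 0.20 without SETBP1 replicate 3), was not past the threshold, nor was Il6, at 0.02 (0.957). Cxcl2, a neutrophil chemokine, stood at 28.4, 18.5 and 22.1 normalised CPM with NRAS and 15.7, 9.54 and 43.9 with SETBP1, and its difference of -0.01 (adjusted p 0.99) became 0.86 (adjusted p 0.0292) without SETBP1 replicate 3, where the groups no longer overlapped. Its relative Cxcl3 stood at 91.3, 81.4 and 70.6 normalised CPM with NRAS and 34.2, 29.8 and 179 with SETBP1, also overlapping through that library alone, and was past the threshold only without it, at 1.34. Among cytokine receptors 4 were higher with NRAS, 9 lower and 7 not past the threshold (4 higher and 10 lower without SETBP1 replicate 3). Il1r1, the signalling interleukin-1 receptor, was at 11.6, 14.3 and 15.2 normalised CPM with NRAS and 2.77, 1.31 and 0 with SETBP1 (log2 3.33, SE 0.55, adjusted p 3.87e-04, 2.73 without replicate 3). Its partner Il1rap was higher by 1.07, the decoy Il1r2 by 0.68 and the chemokine receptor Ccr1 by 1.10. Csf2ra, Csf1r and Csf3r, the receptors for the 3 myeloid colony-stimulating factors, were lower, at -1.26, -0.87 and -0.81.

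Proteases and inhibitors of the plasminogen system were higher with NRAS. Of 14 tested members, 10 were higher with NRAS, 2 lower and 2 not past the threshold (11 higher and 2 lower without SETBP1 replicate 3), with a median of 2.34, and 2.83 without SETBP1 replicate 3. Mmp13, a collagenase, was at 191, 214 and 219 normalised CPM with NRAS and 14.3, 7.97 and 16.9 with SETBP1 (log2 3.98, SE 0.28, adjusted p 2.07e-07, 4.21 without replicate 3). Plau, urokinase, was at 13.7, 10.4 and 11.8 normalised CPM with NRAS and 0.361, 1.96 and 0 with SETBP1 (log2 3.98, SE 0.55, adjusted p 9.29e-05, 3.39 without replicate 3). Its receptor Plaur was at 781, 795 and 776 normalised CPM with NRAS and 95.6, 96.3 and 144 with SETBP1 (log2 2.81, SE 0.14, adjusted p 5.84e-09, 3.03 without replicate 3). Serpinb2, an inhibitor of urokinase, was at 122, 133 and 160.2 normalised CPM with NRAS and 3.61, 2.09 and 20.9 with SETBP1, and its difference of 3.94 was 5.58 without SETBP1 replicate 3. Adam8 was higher by 3.33 and Timp1, with 3 counts in the SETBP1 libraries together, by a ratio of 22.1 (95% counting interval 7.21 to 110.0). Mmp14, a membrane-bound protease, went the other way, at 7.66, 7.58 and 6.85 normalised CPM with NRAS and 46.8, 62.6 and 102 with SETBP1 (log2 -3.25, SE 0.25, adjusted p 4.66e-07, -2.89 without replicate 3), as did Mmp8.

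Lysosomal genes were lower with NRAS in 17 of 27 tested and higher in 2, and in 16 and 2 without SETBP1 replicate 3. The median was -0.57, and -0.42 without SETBP1 replicate 3. Acp5, an acid phosphatase of macrophages and osteoclasts, was at 3.7, 3.38 and 5.58 normalised CPM with NRAS and 37.9, 33.7 and 55.4 with SETBP1 (log2 -3.32, SE 0.26, adjusted p 5.57e-07, -3.07 without replicate 3). Ctsh, a cathepsin, was at 107, 85 and 75.5 normalised CPM with NRAS and 295, 285 and 532 with SETBP1 (log2 -2.06, SE 0.21, adjusted p 7.22e-06, -1.70 without replicate 3). Lamp1, Ctsb and Lgmn were lower, at -0.85, -0.78 and -0.92. Psap, the precursor of sphingolipid activator proteins, was at 2329, 2553 and 921 normalised CPM with NRAS and 4690.5, 4105 and 4659 with SETBP1 (log2 -1.21, SE 0.25, adjusted p 0.00192, -1.18 without replicate 3), with NRAS replicate 3 far below its group. Ctsl, cathepsin L, was higher with NRAS, at 758, 663 and 626 normalised CPM with NRAS and 229.5, 191 and 372 with SETBP1 (log2 1.37, SE 0.18, adjusted p 5.16e-05, 1.70 without replicate 3). In the lipid efflux list 1 gene was higher, 6 were lower and 2 were not past the threshold. Beside Apoe, the cholesterol transporters Abca1 and Abcg1 were lower, at -3.79 and -1.51, and the sterol receptor Nr1h3 (LXR alpha) at -0.96. Lpl, lipoprotein lipase, was at 1268, 1179 and 1173 normalised CPM with NRAS and 183, 172 and 241 with SETBP1 (log2 2.60, SE 0.16, adjusted p 6.75e-08, 2.76 without replicate 3).

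Interferon-stimulated genes were lower with NRAS in 11 of 29 and higher in 3, and without SETBP1 replicate 3 in 8 and 4. The median was -0.34, and -0.15 without SETBP1 replicate 3. Ifit3 was at 15.7, 16.8 and 13.6 normalised CPM with NRAS and 35.3, 35.8 and 53.7 with SETBP1 (log2 -1.44, SE 0.23, adjusted p 2.50e-04, -1.21 without replicate 3). Ifit2, Gbp2 and Gbp3, an antiviral RNA-binding protein and guanylate-binding proteins, were lower, at -1.14, -1.62 and -1.21. Isg15, Bst2 and Zbp1 lost their calls without that library, at -0.37, -0.24 and -0.40. Ddx58, the RNA sensor RIG-I, and Oas3 were higher by 0.79 and 0.60, while Mx1 and Rsad2 were not past the threshold (adjusted p 0.83 and 0.888).

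Metabolic lists had calls in both directions, as had all genes tested (20.8% higher and 20.1% lower), so a split is not particular to these lists. In glycolysis and hypoxia 9 were higher with NRAS, 6 lower and 7 not past the threshold (9 higher and 6 lower without SETBP1 replicate 3). Slc2a1, a glucose transporter, was at 246, 254 and 261 normalised CPM with NRAS and 127, 119 and 67.4 with SETBP1 (log2 1.28, SE 0.17, adjusted p 5.96e-05, 1.04 without replicate 3). Its relative Slc2a3 was higher by 1.86 and the glycolytic enzymes Pkm and Hk2 by 0.54 and 0.51. The hypoxia targets Vegfa and Bnip3 were lower, at -1.02 and -0.85. Among antioxidant genes of the NRF2 list 4 were higher with NRAS, 4 lower and 7 not past the threshold (4 higher and 3 lower without SETBP1 replicate 3). Slc7a11, the cystine importer, was at 131, 121 and 152 normalised CPM with NRAS and 23.1, 24.8 and 22.2 with SETBP1 (log2 2.53, SE 0.10, adjusted p 9.19e-10, 2.49 without replicate 3). Hmox1, haem oxygenase, was at 719, 592 and 598 normalised CPM with NRAS and 292, 249 and 493 with SETBP1 (log2 0.88, SE 0.20, adjusted p 0.00311, 1.23 without replicate 3). Gclc and Gclm, which make glutathione, and Prdx1 were lower, at -0.40, -0.51 and -0.76. In the ATF4 list 6 were higher with NRAS, 4 lower and 8 not past the threshold (5 higher and 4 lower without SETBP1 replicate 3), with the amino acid transporter Slc7a3 higher by 1.21 and the serine synthesis enzyme Phgdh lower, at -0.35. Of cholesterol synthesis genes 6 were higher with NRAS, 5 lower and 10 not past the threshold (6 higher and 4 lower without SETBP1 replicate 3), with Lss and Cyp51 higher by 0.73 and 0.67 and Mvd and Fdps lower, at -0.83 and -0.68. The medians of these 4 lists lay between -0.11 and 0.14, and those of the first 2 and of cholesterol synthesis changed sign without SETBP1 replicate 3.

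Genes of growth were higher with NRAS by small amounts. In replication and mitosis, 15 were higher with NRAS, 0 lower and 10 not past the threshold, and 18 were higher and 0 lower without SETBP1 replicate 3, with a median of 0.27, and 0.26 without SETBP1 replicate 3. Rrm1, a subunit of ribonucleotide reductase, was at 457, 479.9 and 485 normalised CPM with NRAS and 347, 326 and 305 with SETBP1 (log2 0.54, SE 0.07, adjusted p 8.89e-05, 0.49 without replicate 3). Mcm4, Top2a and Cdk1, for helicase, topoisomerase and the mitotic kinase, were higher by 0.50, 0.49 and 0.38. Mki67 was not past the threshold, at 0.26 (adjusted p 0.231). Among ribosome production factors 15 were higher with NRAS, 2 lower and 7 not past the threshold, and 16 were higher and 0 lower without that library, with a median of 0.35, and 0.28 without SETBP1 replicate 3. Ncl, nucleolin, was at 2413, 2261 and 2512 normalised CPM with NRAS and 1646, 1593 and 1389 with SETBP1 (log2 0.63, SE 0.08, adjusted p 2.45e-05, 0.57 without replicate 3). Of the G1 list 10 were higher with NRAS, 3 lower and 3 not past the threshold (11 higher and 3 lower without SETBP1 replicate 3). All 3 D-type cyclins were higher, Ccnd2 and Ccnd3 by 0.71 and 0.63 beside Ccnd1. Cdkn2b, an inhibitor of their kinases, was at 7.14, 7.04 and 7.86 normalised CPM with NRAS and 0.723, 0.653 and 1.42 with SETBP1 (log2 2.95, SE 0.36, adjusted p 3.21e-05, 3.39 without replicate 3), and the inhibitor Cdkn1a was higher by 0.80. The inhibitors Cdkn2c and Cdkn1b were lower, at -0.78 and -1.003, the latter a call lost in 5 of 24 alternatives.

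Among BCL2 family genes 3 were higher with NRAS, 5 lower and 7 not past the threshold (4 higher and 4 lower without SETBP1 replicate 3). Bcl2l1, which encodes the survival protein BCL-XL, was at 143, 147 and 140.2 normalised CPM with NRAS and 48.5, 43.8 and 46.4 with SETBP1 (log2 1.63, SE 0.07, adjusted p 2.87e-09, 1.64 without replicate 3). Bcl2, another survival gene, was higher by 1.05. The death-promoting Bcl2l11 (BIM) was higher by 0.83, while Bmf and Bad, of the same class, were lower, at -2.08 and -0.85. Bcl2a1a, lower, at -1.50, has near-identical copies among which reads may be split. Mcl1, at 0.05 (adjusted p 0.587), was not past the threshold.

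**Figure D5:**
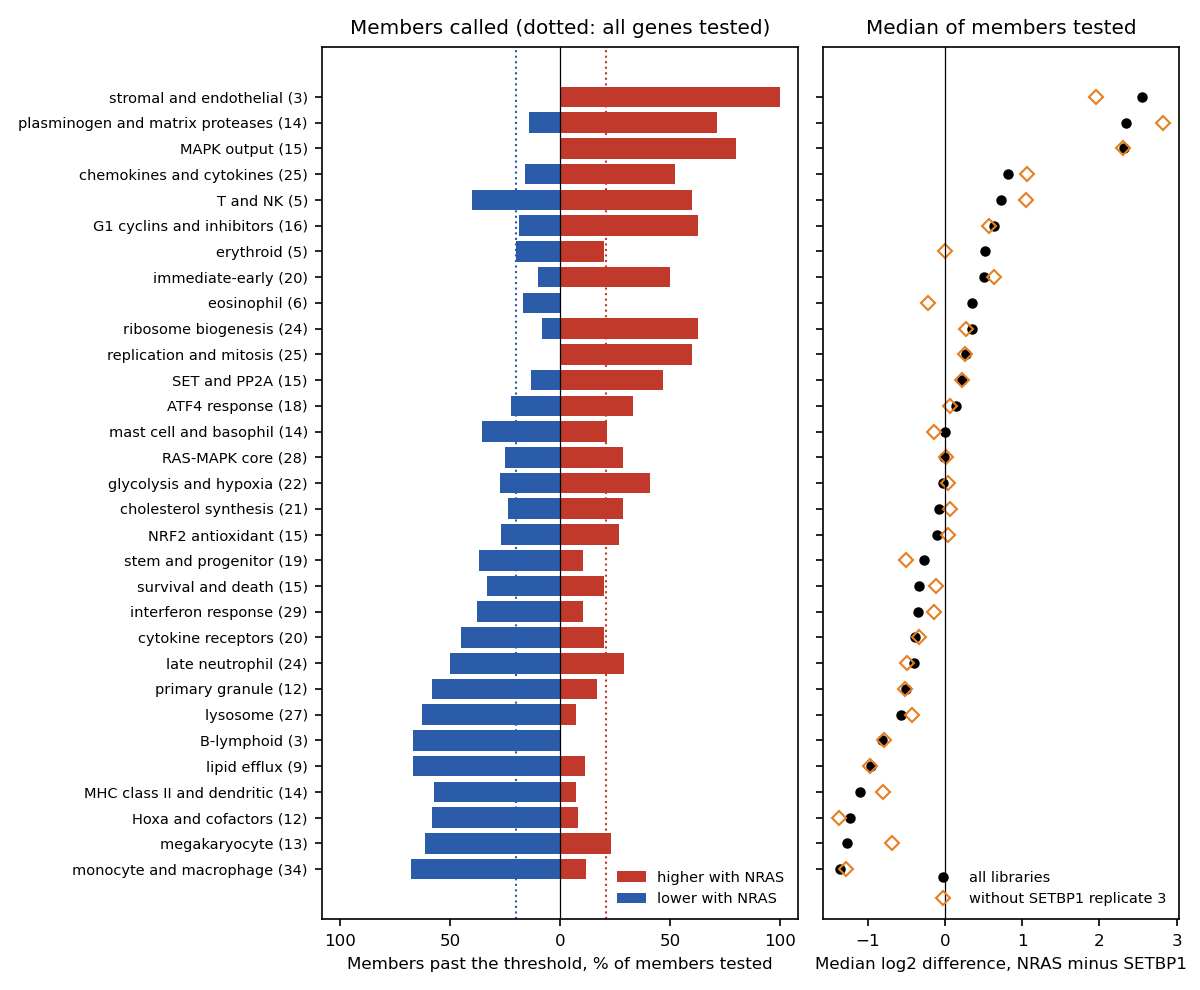
Left: for each gene list, the percentage of tested members (number in brackets) past the threshold and higher (red, right of 0) or lower (blue, left of 0) with NRAS, with dotted lines at the 20.8% and 20.1% of all genes. Right: the median log2 difference of the tested members with all libraries (black) and without SETBP1 replicate 3 (open diamonds); the MAPK output list is at 2.32 and 2.31 and the monocyte and macrophage list at -1.36 and -1.28.

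The empty and SETBP1+NRAS libraries place these differences. They are not among the groups compared, but they entered the fit and its estimate of the spread. Of the 2289 genes higher with NRAS, the mean of the empty libraries lay nearer SETBP1 than NRAS for 65.4%, and of the 2206 lower for 68.1%, against 47.8% of the 6498 genes not called. With SETBP1 replicates 1 and 2 alone as the SETBP1 mean, these shares were 73.5%, 74.4% and 58.0%. The mean of the SETBP1+NRAS libraries lay nearer NRAS for 93.3% of genes higher and 91.6% of genes lower, against 68.4% of those not called. SETBP1+NRAS against empty shares no library with this comparison, though the fit shares one estimate of the spread, and there 40.6% of all genes differed, 20.8% higher and 19.8% lower. Of the 2289 genes higher with NRAS than with SETBP1, 1242 (54.3%) were also higher with both mutants than with empty, which is 54.4% of the genes higher there, and 49 (2.14%) were lower. Of the 2206 genes lower, 1160 (52.6%) were also lower there, which is 53.2% of the genes lower there, and 66 (2.99%) were higher. Both directions together give 2402 of 4495 genes, and 3222 of 4777 without SETBP1 replicate 3. Leaving that library out may also change the calls of both mutants against empty. Their share of all genes in that fit is not given here, so these counts are not compared.

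Genes named here that ran against that majority were chosen for description after their values were seen, and those with values below are examples. Hoxa9 and Eya1, already described, were lower with NRAS than with SETBP1 and higher with both mutants than with empty, by 1.21 (adjusted p 7.44e-06) and 2.20 (4.51e-04). So were Gpnmb, a glycoprotein of macrophages, and Pf4, by 0.81 (0.0228) and 1.07 (0.0158). Gpnmb was at 264, 203 and 171 normalised CPM with NRAS and 924, 796 and 1689 with SETBP1 (log2 -2.42, SE 0.27, adjusted p 1.60e-05, -2.01 without replicate 3). In the other direction, Retnlg and S100a8 were higher with NRAS than with SETBP1 and lower with both mutants than with empty, at -2.69 (9.08e-05) and -1.71 (2.00e-06). Hoxa10, Il1a, Fos, Lgmn, Ctsb, Car2, Prdx1 and Bst2 were likewise lower here and higher there, by 0.42 to 1.89. S100a9, Lat, Gfi1b and Cyp51 were higher here and lower there, at -1.87 to -0.32.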

How the data were processed

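Whole-number counts per gene were deposited by the authors as 1 table, per the file headers, with gene symbols and 1 column per library. RNA was extracted with a micro kit and made into libraries with an ultra low input method, per the labels' protocols. The submitters' processing notes name STAR, DESeq2 and mm10, and the roles, versions, annotation, strandedness and counting tool are not given in the sources used here. The table listed 19910 genes, of which 10993 passed edgeR's filter (minimum count 10, minimum total 15), and they held 99.9% of the counts.

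The 12 libraries were fitted as 4 group means with edgeR 4.0.16 in R 4.3.3 (TMM scaling, quasi-likelihood F test, Benjamini-Hochberg adjustment over all genes tested, threshold 0.05), and the contrast was NRAS minus SETBP1. The fit was repeated without SETBP1 replicate 3. A standard error is the log2 difference divided by the square root of F. For a gene at 0 counts in a group, the bound uses a floor of 3 counts over that group. It leaves out the counting error of the higher group. With few reads, as for Setbp1 and Csf3, the fold may be lower than stated. For 1 to 3 counts the ratio has an exact interval, which covers counting error only. List medians include Csf3 at its fitted value, and at its bound the median is the same, since both lie on the same side of it.

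Groups came from the labels. The gene lists and the comparison itself were chosen with earlier results of these data known, so no list is independent evidence of a direction. Genes named were Nras and Setbp1, the 10 with the largest difference in each direction (mean count of at least 50 in the higher group, called with and without SETBP1 replicate 3, no overlap), the called members of the MAPK output and Hoxa lists, and up to 4 called members of each other list with the largest differences (mean count of at least 20). Further list members were named after their values were seen. The fit was also run on simulated data with few changed genes and no outlying library. That setting differs from these data, so it does not test the calls made here. Alternatives used DESeq2 1.42.0, limma-voom (limma 3.58.1), other scalings, filters, thresholds and sets of libraries. Replicate pairs within a group differed by more than sampling noise (chi-square per degree of freedom 2.75 or more), so no library was counted as a copy of another. Some genes that the rule names are not reported here.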

Additional observations from a re-analysis of the deposited data

How the results depend on the processing

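The count of 4495 genes past the threshold was within 1.5 times under other tools, scalings and filters (DESeq2 4672, limma-voom 4619, library size alone 4453). The split was 1855 higher and 2598 lower by library size alone, and 1991 and 2537 with upper-quartile scaling, against 2289 and 2206 here. It was 2885 at an adjusted p under 0.01 (1481 higher and 1404 lower with NRAS) and 1220 for differences of at least 2-fold (594 and 626). Only the 6 libraries compared gave 2848 (1340 and 1508), and the same libraries without SETBP1 replicate 3 gave 4269. The reason why these counts differ was not tested. Leaving out each of the 12 libraries gave 3286 (without NRAS replicate 3) to 5116 (without SETBP1 replicate 1) in all. With a replicate block the count was 4275 (2212 higher and 2063 lower). Deviations from the group means in same-numbered NRAS and SETBP1 libraries correlated at r of -0.08, -0.02 and -0.13 for replicates 1, 2 and 3. Differently numbered libraries gave -0.10 to 0.16. Deviations from a mean of 3 libraries depend on each other, and SETBP1 replicate 3 stood apart, so these values cannot decide whether the numbers pair the libraries. The median of the Hoxa list was -0.94 with no filter on low counts, -1.51 at a mean count of at least 10, -1.53 at 50 and -1.51 with the 6 libraries alone, where other members were tested, and that of the MAPK output list stayed between 2.20 and 2.40 under all alternatives. Of 142 genes named by rule, 131 kept their call in every alternative in which they were tested (21 to 25 each), 11 lost it in at least 1, and 0 reversed. Depth limited the Hoxa list, where 7 of 19 genes were too low to test, and Setbp1 itself, with 7 or fewer reads in each of these libraries.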
